A study of Caenorhabditis elegans with 9 samples.

Results

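Later and earlier collections of transgenic embryos were compared over 6 of the 9 mRNA-seq libraries of a Caenorhabditis elegans series, which the labels describe as mixed embryos. The labels give no embryo age, and the libraries were divided by their RNA. The later collections were DPY-27::GFP replicate 2 and DPY-27(EQ)::GFP replicates 1 and 3, and the earlier collections were DPY-27::GFP replicates 1 and 3 and DPY-27(EQ)::GFP replicate 2. They were chosen by the expression of late minus maternal marker genes, so every difference between later and earlier libraries is given here as a description, with no test. The word later stands for this order of markers and not for a timed sample.

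The DPY-27::GFP strain (MK14, genotype hsp::dpy-27::gfp) carries GFP-tagged DPY-27, an SMC subunit of the X-specific condensin of the dosage compensation complex, under the heat-shock promoter of hsp-16.41. The DPY-27(EQ)::GFP strain (KB01, genotype hsp::dpy-27[EQ-TR]::gfp) carries the same construct with a substitution in the ATPase domain. Per the study's methods both transgenes are single-copy insertions on chromosome II with the dpy-27 3′ UTR, and the endogenous dpy-27 gene is still present. In every group, the 3 wild-type (N2) libraries included, asynchronous parents received a heat shock of 30 min at 35°C and had 2 h at room temperature before their embryos were released by bleaching. The source field of the labels reads whole worms, while the stage field reads mixed embryo. Nothing in the labels says that the 3 libraries of a strain came from separate cultures.

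A mixed collection holds embryos from the zygote to the moving, elongated animal. In C. elegans the first divisions run on RNA and protein loaded by the mother, many of these RNAs are cleared as zygotic transcription begins, and nearly all embryonic divisions are finished by the middle of embryogenesis. The later embryo elongates, builds muscle, gut and neurons and secretes the cuticle of the first larva. The RNA of a mixed collection therefore depends on which ages it holds. In such bulk samples, fewer cells of a type and less RNA per cell cannot be told apart.

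Reads on genes numbered 7062182 to 9582838 per transgenic library apart from DPY-27(EQ)::GFP replicate 3, with 21281027. That library also had 0.0826 reads on no annotated feature for each read on a gene, against 0.0346 to 0.0429 in the other 5. The header of its count column shares the prefix LAS with those of the wild-type libraries, while the other 5 have SEA. The part of depth and prefix in its values was not tested, and counts without this library are given below. Sperm RNA was near 0: the summed reads of 30 major sperm protein genes were 4 to 11 per transgenic library, with 19 of the 30 at 0 in all 6, and those of 9 other sperm genes were 4 to 35. Yolk protein genes (vit-1 to vit-6), which mark the adult intestine, had summed levels of 10.4, 28.5 and 39.2 CPM (over reads on genes) in the later and 8.19, 16 and 20.5 in the earlier libraries. The groups overlapped, and the part of adult tissue in the differences was not tested.

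The order of the libraries was described with 7 maternal RNA regulators (pos-1, mex-5, mex-6, oma-1, oma-2, pie-1 and spn-4) and 6 late genes (unc-54, myo-3, unc-15, dpy-7, sqt-3 and rol-6), on the log2 scale of CPM (read counts scaled to a common library size with TMM, prior count 2). The late minus maternal mean was 3.55 in DPY-27::GFP replicate 2, 3.01 in DPY-27(EQ)::GFP replicate 1 and 2.53 in DPY-27(EQ)::GFP replicate 3. It was 2.26 and 1.40 in DPY-27::GFP replicates 1 and 3 and 2.09 in DPY-27(EQ)::GFP replicate 2. The libraries just inside and just outside the division, at 2.53 and 2.26, lay closer to each other than the extremes of either group. The maternal mean alone did not separate the groups, since DPY-27::GFP replicate 1, an earlier library, was at 6.51 and DPY-27(EQ)::GFP replicate 3, a later one, at 6.63. The late mean alone did, at 9.15 to 9.42 against 8.65 to 8.86. Of its 6 genes, unc-54, myo-3, unc-15 and sqt-3 each separated the groups, while dpy-7 and rol-6 overlapped. The levels of rol-6 were low, at 0.974 to 2.46 CPM. The wild-type libraries, which have no place in the grouping, had values of 1.35, 1.83 and 0.60. The first principal component of the 6 libraries held 57.0% of the variance and placed them from 0.37 for DPY-27::GFP replicate 2 to -0.40 for DPY-27::GFP replicate 3, with the later libraries at 0.04 or above and the earlier ones at -0.08 or below.

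**Figure D1:**
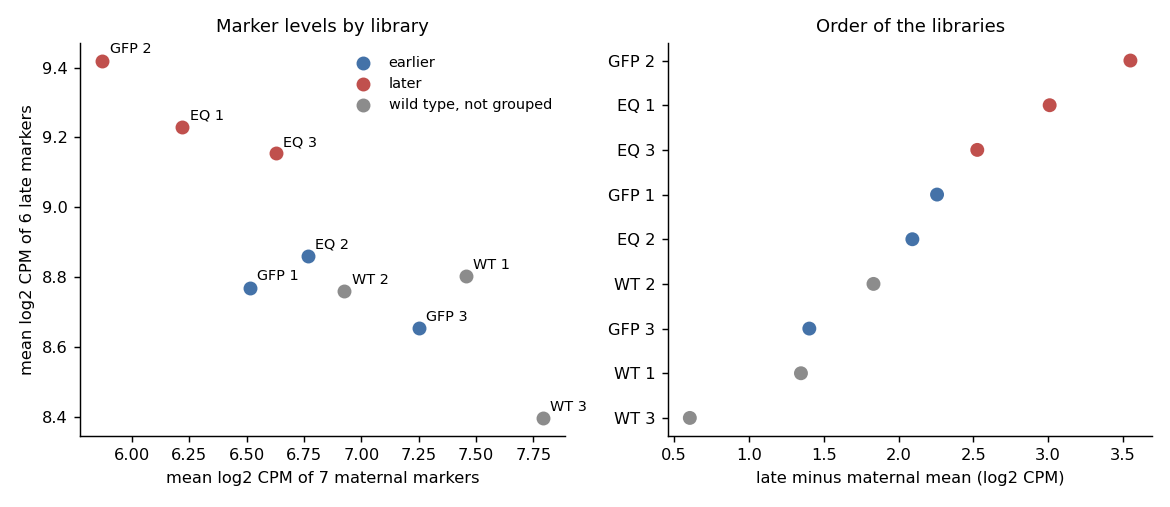
Mean log2 CPM of 6 late markers against that of 7 maternal markers in each of 9 libraries (left), and the difference of both means (right), with GFP for DPY-27::GFP, EQ for DPY-27(EQ)::GFP and WT for wild type. The later libraries sit at 2.53 to 3.55 and the earlier ones at 1.40 to 2.26, and on the maternal axis the 2 groups overlap. Wild-type values were scaled with all 9 libraries and transgenic values with the 6.

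Since the groups held unequal numbers of each strain, the difference of a gene was taken as later minus earlier within each strain and averaged over the strains. A gene is called higher or lower below where all 3 later libraries lay on one side of all 3 earlier ones. Of 12137 genes that passed a filter on low counts, 1918 (15.8%) were higher and 2046 (16.9%) lower in every later library. With the deposited TPM values in place of counts, which carry no TMM scaling, these shares were 8.17% and 23.2%. With a difference of at least 1 on the log2 scale as well, 172 genes (1.42%) were higher and 87 (0.717%) lower. The members next to this limit were col-10 at 1.0 inside and grd-6 at 0.996 outside, and ZC155.4 at -1.0 inside and sdz-16 at -0.999 outside. These genes had fewer reads than most, with a median level of 6.46 CPM for those higher and 7.44 for those lower, against 23.6 for all genes tested. Among the 172 genes, 16 (9.3%) had a library at 3 reads or fewer, as had 6 (6.9%) of the 87 and 158 (1.3%) of all genes tested.

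Single libraries moved these numbers. Without DPY-27(EQ)::GFP replicate 3, the deeply sequenced library, 332 genes were higher and 227 lower at the same fold, and they included 165 of the 172 and 85 of the 87. Without DPY-27::GFP replicate 1 the numbers were 530 and 165, without DPY-27(EQ)::GFP replicate 2 they were 689 and 273, without DPY-27(EQ)::GFP replicate 1 there were 54 lower, and without DPY-27::GFP replicate 2 there were 75 higher, 51 of them among the 172. DPY-27::GFP replicate 2 is the only later library of its strain and DPY-27(EQ)::GFP replicate 2 the only earlier one of its own. Leaving out either leaves the difference of the other strain alone, so the median in each strain is given for each gene list below.

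The 2 strains share no library, so each gives its own difference. Across the 12137 genes, which are not independent replicates, their Pearson correlation was 0.515 and their Spearman correlation 0.511. The groups of both strains were set on the same markers, so the correlation is a description. It was 0.298 without DPY-27(EQ)::GFP replicate 1 and 0.379 without DPY-27::GFP replicate 3, and 0.31 with no filter on low counts. The spread of the differences was wider in DPY-27::GFP (SD 0.638 across genes) than in DPY-27(EQ)::GFP (0.374), and 928 genes were at least 1 higher on the log2 scale in the former against 118 in the latter. Of those 928, 79.8% were also above 0 in DPY-27(EQ)::GFP, against 46.7% of all genes, with a median of 0.34. Of the 389 genes at least 1 lower in DPY-27::GFP, 90.0% were below 0 in DPY-27(EQ)::GFP, against 53.3% of all genes, with a median of -0.49.

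**Figure D2:**
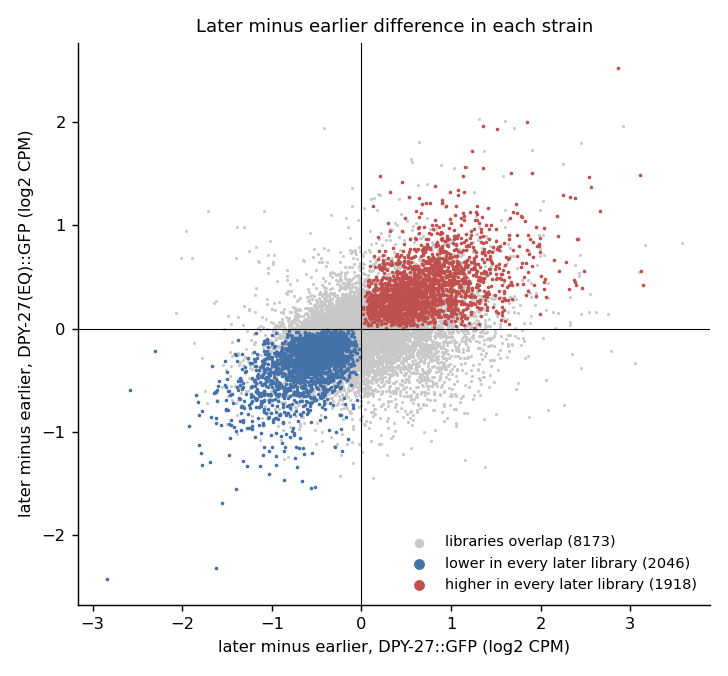
Later minus earlier difference of each of 12137 genes in DPY-27::GFP (horizontal, log2 CPM) and DPY-27(EQ)::GFP (vertical, log2 CPM), coloured by whether the later and earlier libraries overlap. The differences spread over a wider range in DPY-27::GFP (SD 0.638) than in DPY-27(EQ)::GFP (SD 0.374). By the definition of the colours, the coloured genes can lie only in the quadrants where both strains have one sign.

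Among the genes that did not overlap, the one farthest above 0 was D1086.9, on chromosome V from 14104254 to 14106466 (WS220 positions of the deposited table). It had 10.0, 4.13 and 6.46 CPM in the later libraries DPY-27::GFP replicate 2 and DPY-27(EQ)::GFP replicates 1 and 3. In the earlier libraries DPY-27::GFP replicates 1 and 3 and DPY-27(EQ)::GFP replicate 2 it had 3.9, 0.293 and 0.741 CPM, so the gap between the groups was narrow and the difference of 2.69 rested mainly on the 2 lowest libraries. DPY-27::GFP replicate 3 had 2 reads of this gene. The next 9 among these were marg-1, col-93, col-98, fipr-26, epic-2, C18H7.1, col-94, gst-38 and C33G8.2, at 2.30 down to 1.79. Some genes whose groups overlapped had differences in this range, such as gst-4 at 2.44. The 9 genes included 3 of the col- family, which encodes cuticle collagens, and a glutathione S-transferase gene, gst-38.

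Among these, col-98 had 19.6, 11.6 and 4.03 CPM in the later libraries, in the order given above, and 3.41, 2.93 and 2.54 in the earlier ones, with a difference of 1.96. DPY-27(EQ)::GFP replicate 3 was the lowest of the later libraries. The gene marg-1 had 8.91, 4.67 and 1.21 CPM in the later and 0.852, 0.879 and 0.741 in the earlier libraries. Here too DPY-27(EQ)::GFP replicate 3 lay nearest to the earlier collections. C33G8.2 had 0 reads in DPY-27::GFP replicate 3, and its difference of 1.79 depends on the prior count.

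Among the genes that did not overlap, the one farthest below 0 was F49C12.2, on chromosome IV from 9297942 to 9299228. Its level was 0.512, 0.667 and 1.94 CPM in the later and 4.87, 4.83 and 7.09 in the earlier libraries, a difference of -2.63. F49C12.4, which starts at 9302647 on the same chromosome, was next at -1.97, with 1.13, 0.400 and 1.70 CPM in the later and 3.65, 4.10 and 5.08 in the earlier libraries. For both genes the groups did not overlap. In CPM the lowest earlier library was above every later one by more than the spread among the later ones. On the log2 scale the gap was smaller than that spread. Reads in the later libraries were 5, 5 and 40 for F49C12.2 and 11, 3 and 35 for F49C12.4. The other 8 were F23A7.8, fbxa-104, T12F5.2, dct-13, bath-33, C17E7.12, Y24F12A.3 and Y13C8A.1, at -1.62 to -1.44. F23A7.8 had 5.12, 5.07 and 7.68 CPM in the later and 8.40, 28.3 and 20.5 in the earlier libraries. The names fbxa-104 and bath-33 stand for an F-box protein and a protein with BTB and MATH domains, kinds of protein that serve as adaptors of ubiquitin ligases.

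The lists that follow hold 27 sets of genes with known roles. Maternal and early genes are described first. The maternal RNA regulators, proteins that bind and silence or protect RNA in the oocyte and early embryo, include the markers above, so their lower level restates the grouping in part. Of 15 members tested, 3 (20%) were lower in every later library, against 16.9% of all genes, and 1 was higher. Of the 15, 14 were below 0 in both strains, and the median was -0.61 (-0.92 in DPY-27::GFP, -0.24 in DPY-27(EQ)::GFP), against -0.02 for all genes. In most of the members that overlapped, DPY-27::GFP replicate 1 lay low for an earlier library or DPY-27(EQ)::GFP replicate 3 high for a later one.

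The zinc-finger protein gene pos-1, needed for posterior cell fates, had 183, 237 and 267 CPM in the later and 305, 513 and 347 CPM in the earlier libraries. The highest earlier level was that of DPY-27::GFP replicate 3 and the groups did not overlap, at a difference of -0.79. The RNA-binding protein gene spn-4 had 75.6, 98.3 and 131 CPM against 133, 212 and 158, also without overlap but with 131 and 133 next to each other. For mex-3, a KH-domain regulator of translation, the groups overlapped, with 119, 150 and 150 CPM in the later and 145, 243 and 166 in the earlier libraries. Members of the lists that are not among the 3 with the highest mean TPM of their list were picked after their values were seen. One of these was lin-41, a regulator of the oocyte that also acts in larval development, the 1 member that was higher, at 25.1, 19.3 and 16.8 CPM against 13, 12.3 and 14.8. The early RNA regulator nos-2 had the lowest difference of the list, at -0.90, although its groups overlapped by 1 library, with 12.4, 19.3 and 23.3 CPM against 22.6, 34.6 and 33.0.

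Of 12 genes of P granules and germ cells, 5 (41.7%) were lower and 0 higher, and the median was -0.54 (-0.83 and -0.20 in the strains, in the order above). The 5 were pgl-1, deps-1, meg-1, meg-2 and meg-3, components of the granules or of their assembly. The gene meg-1 had 35.5, 49.6 and 57.6 CPM in the later and 65.1, 88.6 and 61.9 in the earlier libraries. The RNA-binding proteins car-1 and cgh-1, which also act in processing bodies of somatic cells, overlapped, at 136, 158 and 179 CPM against 123, 158 and 134 for car-1 and at 120, 128 and 148 against 114, 149 and 141 for cgh-1. Of 11 eggshell and egg activation genes, egg-2 and egg-3 (18.2%) were lower, against 16.9% of all genes, and 0 were higher. The median was -0.32 (-0.495 without DPY-27(EQ)::GFP replicate 3), from -0.84 in DPY-27::GFP against 0.02 in DPY-27(EQ)::GFP, so the strains differed in sign. The kinase gene mbk-2, which starts the change from oocyte to embryo, had 885, 924 and 973 CPM against 858, 990 and 954. The chondroitin proteoglycan genes cpg-1 and cpg-2 were at 17.5 to 29.4 and 13.5 to 28.5 CPM in the later libraries and at 21.8 to 26.4 and 18.7 to 26.4 in the earlier ones.

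Genes of cell division were lower in the later libraries or overlapped, and 0 were higher. Of 14 DNA replication genes, 6 (42.9%) were lower and 0 higher, with a median of -0.47 (-0.83 and -0.20). Of 20 genes of mitosis and the cell cycle, 10 (50.0%) were lower and 0 higher, with a median of -0.54 (-0.85 and -0.19), and 17 of the 20 were below 0 in both strains. The small subunit gene of ribonucleotide reductase, rnr-2, had 252, 267 and 388 CPM in the later and 524, 608 and 483 in the earlier libraries. All later libraries lay below all earlier ones, and DPY-27(EQ)::GFP replicate 3 was closest to them. The other members at the highest TPM overlapped through that library: pcn-1, the sliding clamp of DNA polymerase, had 256, 280 and 430 CPM against 499, 621 and 414, and mcm-7, a subunit of the replicative helicase, had 479, 565 and 736 against 827, 866 and 612.

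The cyclin gene cyb-3 had 709, 815 and 1230 CPM in the later and 1430, 1510 and 1100 in the earlier libraries. The cyclin gene cyb-1 had 336, 365 and 537 CPM against 613, 621 and 512. Both genes followed the order within DPY-27::GFP, while replicate 3 of DPY-27(EQ)::GFP, a later library, was above replicate 2, an earlier one. The phosphatase gene cdc-25.2 had 258, 327 and 300 CPM against 315, 388 and 281, with a difference of -0.44 in DPY-27::GFP against 0.16 in DPY-27(EQ)::GFP. The 10 genes that were lower were cyb-2.1, cyb-2.2, cdk-1, cdc-25.1, air-1, air-2, zyg-1, zen-4, bub-1 and hcp-3. They encode cyclins and their kinase, an activating phosphatase, Aurora kinases, a kinase of centriole duplication, a kinesin of cytokinesis, a checkpoint kinase and the centromeric histone.

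Of 18 early zygotic regulators, 11 passed the filter. Of these, 5 (45.5%) were lower and 0 higher, and 10 were below 0 in both strains, with a median of -0.64 (-0.85 and -0.46). The Caudal homologue pal-1, which specifies muscle and epidermal lineages, had 37.6, 40 and 43.8 CPM in the later and 47.7, 72.5 and 61.7 in the earlier libraries. The T-box gene tbx-9 had 27.6, 28.7 and 37.4 CPM against 42.4, 58.7 and 41.2. The bHLH gene hnd-1 had 19.2, 21.6 and 23.9 CPM against 27.4, 28.9 and 27.8. In all 3 the groups were apart, with differences of -0.60, -0.59 and -0.42. The other genes that were lower were end-1, a GATA factor of the endoderm lineage, at 3.28, 3.6 and 5.2 CPM against 5.85, 9.08 and 6.03, and ceh-51, a homeobox gene of the mesoderm lineage, at 7.37, 12.3 and 14.5 against 20.8, 25.2 and 20.2.

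**Figure D3:**
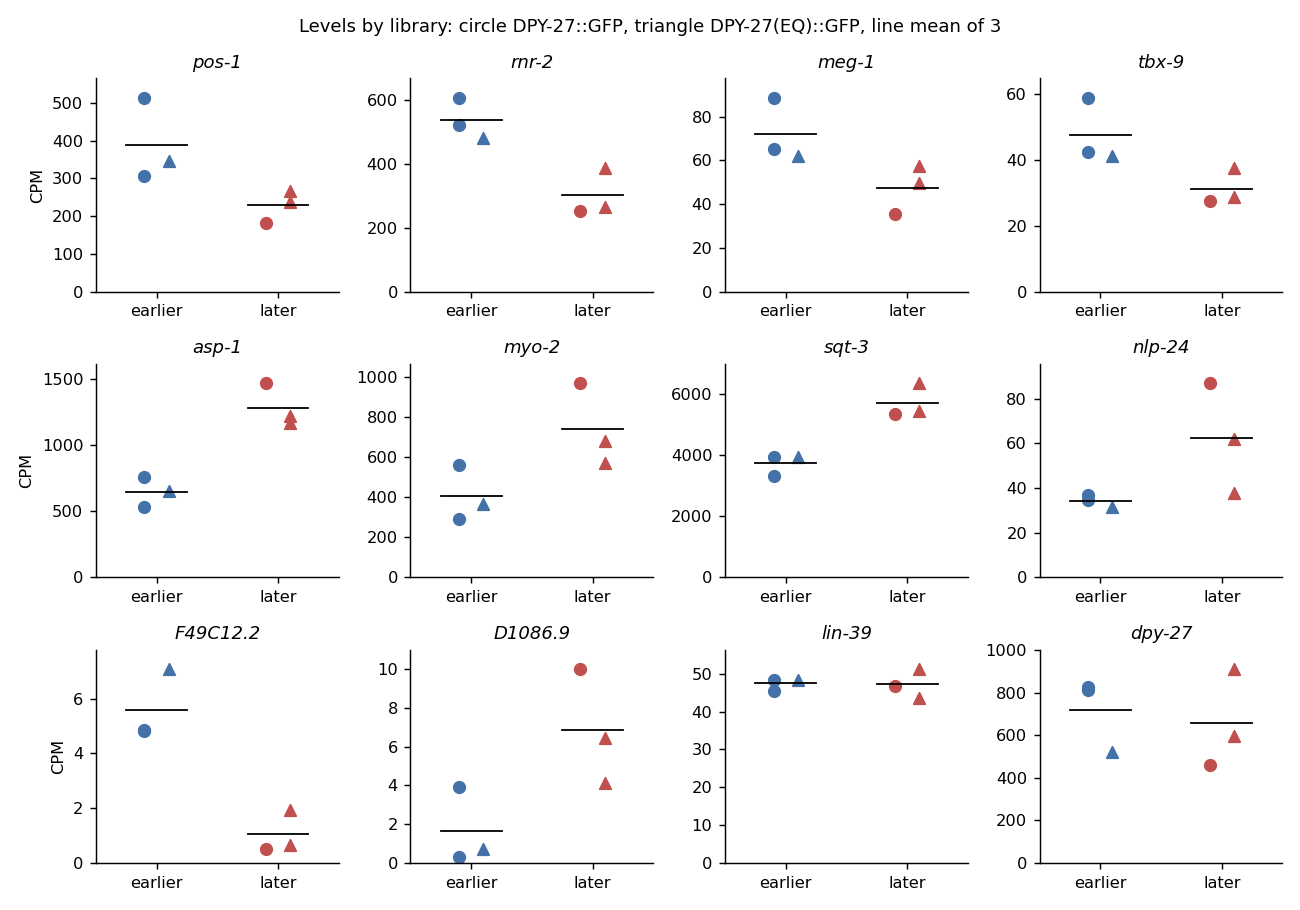
CPM (vertical, from 0) of 12 genes in the 3 earlier and 3 later libraries, with circles for DPY-27::GFP, triangles for DPY-27(EQ)::GFP and a line at the mean of each group. The groups are apart for pos-1, rnr-2, meg-1, tbx-9, asp-1, myo-2, sqt-3, nlp-24, F49C12.2 and D1086.9 and overlap for lin-39 and dpy-27.

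The regulators that act in the middle of embryogenesis were near the median of all genes. Of 16 tissue fate regulators, elt-1 was lower and elt-3 higher, and the median was -0.13 (-0.17 and 0.02). The foregut regulator pha-4 had 224, 249 and 250 CPM in the later and 232, 256 and 236 in the earlier libraries. The epidermal regulator lin-26 had 222, 228 and 235 CPM against 233, 269 and 295, where 235 and 233 overlap. The muscle regulator unc-120 had 120, 120 and 114 CPM against 129, 119 and 141. Of 6 Hox genes, 0 were apart in either direction, and the median was -0.08 (-0.02 and -0.12). The Hox gene lin-39 had 46.8, 51.3 and 43.7 CPM against 45.5, 48.5 and 48.5, ceh-13 had 81.7, 79.0 and 90.2 against 87.4, 87.0 and 96.8, and egl-5 had 18.4, 18.7 and 17.3 against 18.4, 19 and 20.4. Without DPY-27(EQ)::GFP replicate 2 the median of the Hox genes was 0.015. Of 50 tested genes named ceh-, a family of homeobox genes, 8 were lower and 6 higher, at a median of -0.07 (-0.05 and 0.02). Of 169 nuclear hormone receptor genes, 19 (11.2%) were higher and 6 (3.55%) lower, at a median of 0.08 (0.20 and -0.005).

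Of 22 sarcomere genes of the body wall muscle, 14 (63.6%) were higher in every later library, against 15.8% of all genes, and 0 were lower. Their median was 0.59 (0.70 in DPY-27::GFP, 0.49 in DPY-27(EQ)::GFP). The list holds the late markers unc-54, myo-3 and unc-15, so it is not separate from the grouping. Outside the markers, act-4, an actin gene, had 3530, 3470 and 3490 CPM in the later and 2470, 3010 and 2490 in the earlier libraries. The myosin light chain gene mlc-2 had 635, 555 and 500 CPM against 381, 421 and 410. For the troponin C gene pat-10 the groups overlapped, with 669, 584 and 490 CPM against 355, 483 and 506. The largest difference in the list was that of the troponin T gene tnt-2, at 1.18, with 204, 141 and 119 CPM against 84.6, 56.8 and 74.1. Among the genes of muscle attachment, deb-1 and atn-1 were higher, each at 0.40, while pat-2 at 0.23, pat-3 at -0.08, unc-97 at -0.14 and unc-112 at 0.02 overlapped.

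All 6 genes of the pharyngeal muscle were above 0 in both strains, and 3 were higher without overlap, at a median of 0.80 (1.16 and 0.68). The pharyngeal myosin gene myo-2 had 968, 680 and 570 CPM in the later and 562, 293 and 368 in the earlier libraries. The troponin I gene tni-4 had 287, 208 and 203 CPM against 171, 104 and 148. The troponin T gene tnt-4 had 375, 301 and 255 CPM against 259, 176 and 172, so DPY-27(EQ)::GFP replicate 3 lay just below DPY-27::GFP replicate 1.

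Of 10 intestine genes, 7 (70%) were higher and 0 lower, at a median of 0.58 (0.74 and 0.27) that was 0.378 without DPY-27::GFP replicate 3. The aspartyl protease gene asp-1 had 1470, 1220 and 1170 CPM in the later and 761, 530 and 654 in the earlier libraries, a difference of 1.04. The gap between its groups was wider than the range of either group. The microvillar actin gene act-5 had 692, 581 and 592 CPM against 439, 395 and 378. The intermediate filament gene ifb-2 of the intestinal lumen had 470, 383 and 361 CPM against 299, 262 and 267. Both were apart, at 0.68 and 0.61. The esterase gene ges-1, an early marker of the gut lineage, was at 0.01, with 14.3, 17.7 and 15.1 CPM against 14.2, 14.9 and 15.9.

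Of 23 synaptic and neuronal genes, 8 (34.8%) were higher and 0 lower, and 19 were above 0 in both strains, at a median of 0.43 (0.65 and 0.37). The members with the highest TPM, snb-1, unc-18 and unc-64 of the vesicle fusion machinery, all overlapped, with differences of 0.002, 0.17 and 0.13. For snb-1 the levels were 142, 125 and 135 CPM in the later and 119, 138 and 144 in the earlier libraries. The higher members were among others egl-3 and egl-21, which process neuropeptide precursors, at 0.83 and 0.80, the dense-core vesicle gene ida-1 at 0.73 and the tubulin gene mec-12 at 0.72. For egl-3 the levels were 157, 109 and 113 CPM in the later and 91.6, 60.3 and 74.2 in the earlier libraries.

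Of 80 tested neuropeptide genes out of 109, 44 (55.0%) were higher and 0 lower, at a median of 0.71 (1.03 and 0.33), and 67 of the 80 were above 0 in both strains. The gene nlp-24 had 86.9, 62.2 and 37.8 CPM in the later and 36.8, 34.6 and 31.3 in the earlier libraries. DPY-27(EQ)::GFP replicate 3, at 37.8, was just above the highest earlier library, at 36.8. For nlp-33 and nlp-36, peptide genes with higher TPM, the groups overlapped, at 127, 107 and 84.1 CPM against 64.7, 84.9 and 81.1 for nlp-33 and at 49.9, 50.3 and 43.1 against 28.4, 47 and 43 for nlp-36. The largest difference among the members that were apart was that of flp-14, at 1.30, with 13.9, 8.14 and 5.98 CPM against 3.77, 3.37 and 4.23. Of 23 sensory cilium genes, 3 (13%) were higher, against 15.8% of all genes, and 0 lower, at a median of 0.16 (0.17 and 0.12) that was 0.083 without DPY-27::GFP replicate 3. The kinesin gene klp-11 had 192, 185 and 172 CPM against 203, 170 and 183, the transcription factor gene daf-19 had 148, 146 and 139 against 120, 143 and 133, and ift-20 had 8.19, 10.0 and 9.43 against 7.92, 8.79 and 8.15.

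Of 158 genes named col-, 84 passed the filter. Of these, 45 (53.6%) were higher and 0 lower, 21 of them by at least 1 on the log2 scale, at a median of 0.73 (0.89 and 0.50). With no filter on low counts the median of the family was 0.33. The list of collagens that form the furrows and the early cuticle (dpy-, sqt-, rol- and lon-) had 12 tested members. Of these, 2 (16.7%) were higher, against 15.8% of all genes, and 0 lower. Their median was 0.13 (-0.05 and 0.19), and it turned to -0.013 when the counts were thinned to the smallest library. The furrow list holds the late markers dpy-7, sqt-3 and rol-6. In the col- family, col-74 had 2270, 2130 and 2130 CPM in the later and 1760, 1520 and 1320 in the earlier libraries. The gene col-165 had 2030, 1970 and 2050 CPM against 1570, 1230 and 1180, and col-10 had 395, 339 and 262 against 179, 167 and 170. All 3 were apart.

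In the furrow list sqt-3 had 5340, 5430 and 6330 CPM in the later and 3320, 3940 and 3920 in the earlier libraries, at 0.57. The collagen gene dpy-17 had 4110, 4910 and 4600 CPM against 3800, 4590 and 3750, and dpy-10 had 598, 674 and 639 against 626, 765 and 661. The last of these had a difference of -0.11, and the marker dpy-7 one of -0.07. The marker rol-6 overlapped, with 1.07 in DPY-27::GFP against -0.40 in DPY-27(EQ)::GFP. Apical matrix and cuticle processing genes were near 0, with lpr-3 higher of 11 tested and a median of -0.01 (-0.15 and 0.13), which was 0.019 with DESeq2 size factors. The lipocalin gene lpr-3 had 775, 891 and 940 CPM against 564, 682 and 737. The matrix genes noah-1 and noah-2 had 1280, 1310 and 1480 CPM against 1410, 1390 and 1340 and 1200, 1380 and 1420 against 1120, 1550 and 1280. Reads that align to more than 1 place were left out of the counts, so collagens with near-identical copies are uncertain.

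Of 16 genes of epithelial junctions and elongation, ajm-1 and vab-19 were higher and the catenin genes hmp-1 and hmp-2 lower, at a median of 0.10 (-0.03 and 0.17) that was -0.018 with TPM values. The junction gene ajm-1 had 1560, 1580 and 1550 CPM in the later and 1490, 1410 and 1240 in the earlier libraries. For its partner dlg-1 the levels were 1350, 1340 and 1340 CPM against 1340, 1170 and 1140. The cytolinker gene vab-10, of the structures that attach the epidermis, had 4590, 3860 and 3650 CPM against 4240, 3340 and 2950. For dlg-1 and vab-10 the groups overlapped.

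**Figure D4:**
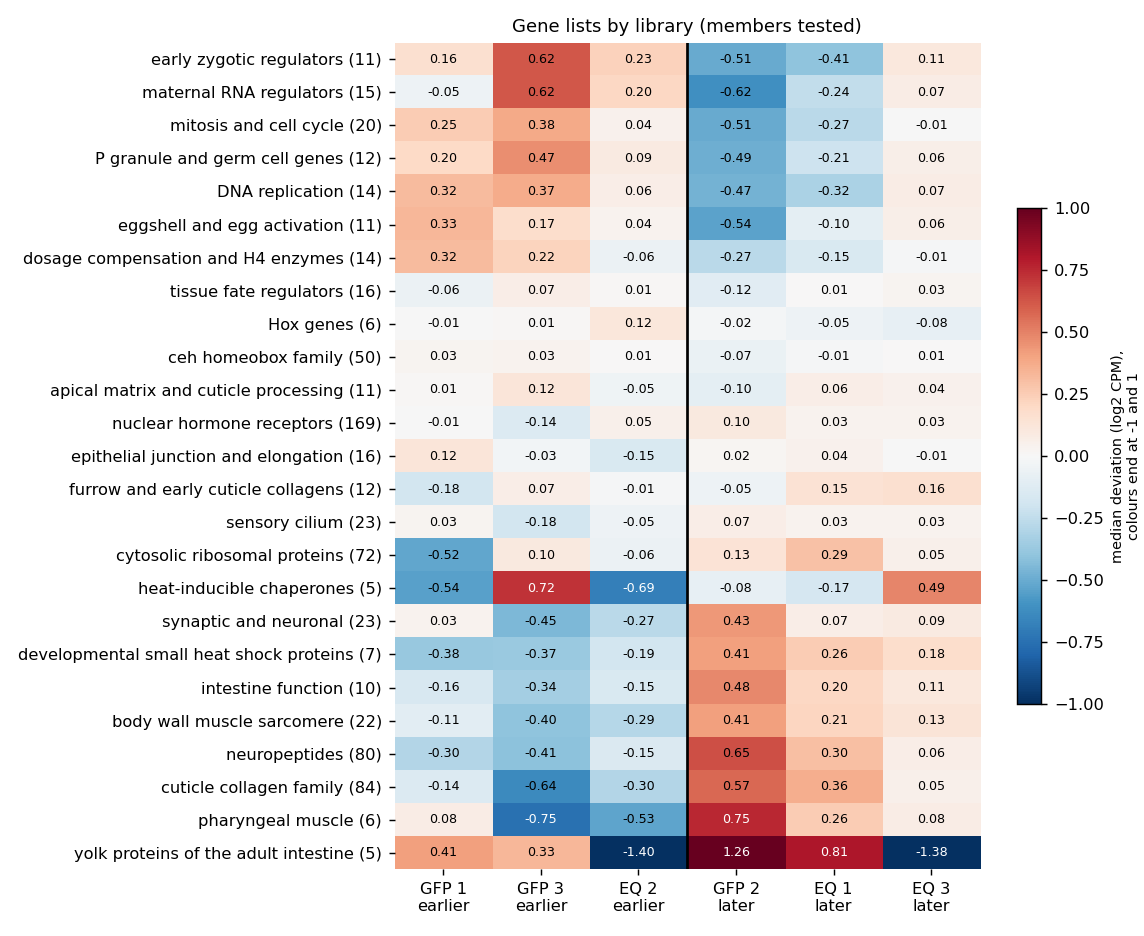
Median deviation of each gene list from the mean of the 6 transgenic libraries (log2 CPM, colour and number) in the earlier libraries, left of the line, and the later ones, right of it, with the number of members tested in brackets. The lists at the top are lower in DPY-27::GFP replicate 2 and higher in DPY-27::GFP replicate 3, those at the bottom, apart from the yolk proteins, the other way round, and DPY-27(EQ)::GFP replicate 3 lies near 0 in most lists.

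The parents were heat shocked, so heat-inducible genes were described separately. Of 9 heat-inducible chaperone genes, 5 passed the filter and 0 were apart, at a median of 0.30 that was -0.103 with TPM values and -0.236 without DPY-27::GFP replicate 1. It was 0.076 without DPY-27(EQ)::GFP replicate 3 and 0.701 without DPY-27::GFP replicate 3. The strains differed, with -0.15 in DPY-27::GFP against 0.95 in DPY-27(EQ)::GFP, and the collections overlapped for all 5 genes. The gene hsp-16.41, whose promoter drives the transgenes (chromosome V, 1805231 to 1805874), had 70.8, 101 and 105 CPM in the later and 51.4, 86 and 53.1 in the earlier libraries. The gene F44E5.5, of the inducible HSP70 family, had 43.8, 40.4 and 55.6 CPM against 26.5, 121 and 27.9, with the highest level in an earlier library, and its neighbour F44E5.4 had 20.8, 10.5 and 28.4 against 10.2, 49.8 and 10.4. Among 7 small heat shock proteins with developmental expression, 4 (57.1%) were higher and 0 lower, at a median of 0.48 (0.69 and 0.45). The genes hsp-12.2 and hsp-25 had 202, 177 and 184 CPM against 116, 117 and 132 and 200, 208 and 214 CPM against 140, 150 and 150. The gene sip-1 overlapped, with 336, 446 and 603 CPM against 408, 1200 and 518.

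Of 14 genes of dosage compensation and of enzymes for histone H4, 5 (35.7%) were lower and 0 higher, at a median of -0.28 (-0.59 and -0.03). They were dpy-30, sdc-1, set-1, set-4 and sir-2.1. The methyltransferase gene set-1, for H4K20 monomethylation, had 276, 340 and 337 CPM in the later and 470, 458 and 421 in the earlier libraries. The gene dpy-30, shared by dosage compensation and histone H3 methylation, had 173, 190 and 187 CPM against 193, 236 and 207. The genes set-4 and sir-2.1, a methyltransferase that adds further methyl groups to H4K20 and a deacetylase, had differences of -0.26 and -0.42. The reads of dpy-27 (chromosome III, 3813534 to 3819661) can come from the endogenous gene and the transgene, and had 460, 599 and 913 CPM against 813, 828 and 520. Its difference was -0.84 in DPY-27::GFP against 0.51 in DPY-27(EQ)::GFP.

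Of 72 cytosolic ribosomal protein genes, 26 (36.1%) were higher and 0 lower, at a median of 0.27 (0.36 and 0.22). The median was 0.156 without DPY-27::GFP replicate 1 and 0.457 without its replicate 3. The median deviation of the list from the 6-library mean was -0.52 in DPY-27::GFP replicate 1 and between -0.06 and 0.29 in the other 5. The members with the highest TPM, which are short genes, overlapped: rpl-29 had 426, 535 and 324 CPM in the later and 213, 537 and 412 in the earlier libraries, rps-29 had 234, 291 and 196 against 118, 266 and 230, and rpl-36 had 723, 835 and 543 against 384, 735 and 676. The members apart with the largest difference were rps-27A at 0.68 and rps-4 at 0.65. For rps-4 the levels were 1050, 1130 and 1190 CPM against 660, 864 and 656.

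The 5 tested yolk protein genes were above 0 in both strains, at a median of 1.1 (1.03 and 1.06). It was 0.57 without DPY-27(EQ)::GFP replicate 1 and 0.434 with log2(TPM + 1). Only vit-1 was apart, with 9.42, 10.9 and 7.04 CPM against 5.24, 2.64 and 4.13. The gene vit-2 had 10.7, 6.0 and 0.729 CPM against 4.51, 4.10 and 1.38, and vit-6 had 11.1, 6.54 and 1.60 against 7.18, 5.71 and 1.59. The levels of both were lowest in DPY-27(EQ)::GFP replicates 2 and 3, an earlier and a later library.

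Families outside these lists were examined after the differences were known, by the start of their names, and are set against the 15.8% higher and 16.9% lower among all genes tested. Of 191 F-box genes (fbxa-, fbxb-, fbxc-), 71 (37.2%) were lower and 8 (4.19%) higher, at a median of -0.37. Of 27 genes named sdz-, zygotic genes that depend on the maternal factor SKN-1, 14 (51.9%) were lower and 0 higher, at a median of -0.64. In the other direction, 11 of 27 glutathione S-transferase genes (gst-, 40.7%), 10 of 13 aspartyl and cysteine protease genes (asp-, cpr-, 76.9%) and 18 of 37 hedgehog-related genes (wrt-, grl-, grd-, 48.6%) were higher, with 0 lower in each. Their medians were 0.57, 0.73 and 0.40. Of 50 C-type lectin genes (clec-), 14 (28%) were higher and 5 (10%) lower, of 41 cytochrome P450 genes (cyp-), 6 (14.6%) were higher and 1 lower, and of 39 genes named math- or bath-, 1 was higher and 8 (20.5%) lower. Of 34 transthyretin-related genes (ttr-), 6 (17.6%) were higher and 0 lower. Of 14 genes named fip-, fipr- or cnc-, 6 (42.9%) were higher and 0 lower. Of 7 genes with names in the series nspa- to nspf-, 5 (71.4%) were higher and 0 lower.

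The chromosomes held unequal shares of these genes. On the X chromosome 467 of 1858 genes tested (25.1%) were higher in every later library and 149 (8.02%) lower, against 14.1% and 18.5% on the autosomes. The median difference was 0.15 on X (0.22 in DPY-27::GFP, 0.09 in DPY-27(EQ)::GFP) and -0.05 on the autosomes (-0.05 in each strain), which is 0.20 apart. By autosome, the share higher ran from 11.4% on I to 17.4% on V, and the share lower from 12.7% on V to 22.5% on I. With genes divided by mean level into bins of low, middle and high expression, the X chromosome was above the autosomes in each, by 0.13, 0.22 and 0.20. At a difference of at least 1 on the log2 scale the order changed, with 2.99% of genes higher on V, 2.1% on X and 0.396% on I. DPY-27 belongs to the machinery that acts on the X chromosome, and the part of the transgenes, the tissues and the embryo stage in this difference was not tested.

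**Figure D5:**
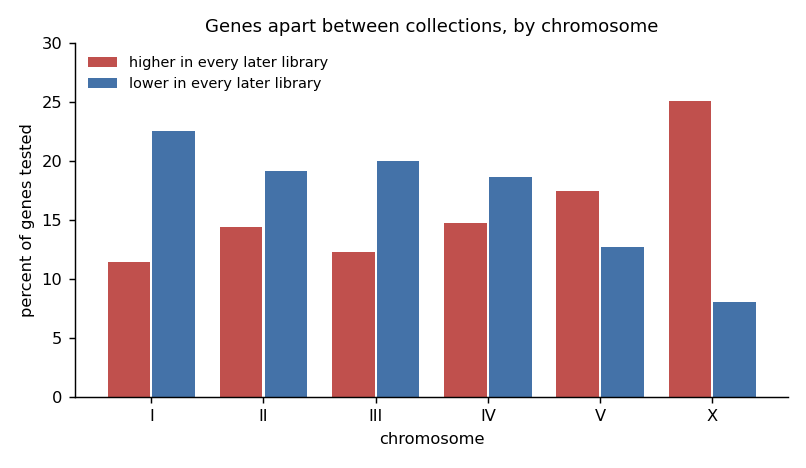
Percent of genes tested on each chromosome (vertical, from 0) that were higher (red) or lower (blue) in all 3 later than in all 3 earlier libraries. The X chromosome has the largest red bar, 25.1%, and the smallest blue one, 8.02%, and chromosome I has the largest blue bar, 22.5%.

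The wild-type libraries took no part in the grouping, and their spread was examined over the genes chosen in the transgenic strains. The median deviation from the wild-type mean over the 172 genes higher in later collections was 0.004, 0.11 and -0.15 in wild-type replicates 1 to 3. Over the 87 lower genes it was 0.002, -0.28 and 0.23. The late minus maternal mean of these libraries was 1.35, 1.83 and 0.60, so replicate 2, with the highest marker value, had the higher genes up and the lower genes down, and replicate 3 had the opposite. Across 12124 genes, the deviation of each wild-type library had a correlation of 0.075, 0.445 and -0.477 with the later minus earlier difference of the transgenic libraries. The 3 deviations sum to 0, so they are not separate measurements.

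The strains themselves, which the labels define, were compared with the collection as a covariate. This asked whether a gene differed between the strains with the collection term in the fit. The term does not fully match the strains. Among later libraries the late minus maternal mean was 3.55 in DPY-27::GFP against 3.01 and 2.53 in DPY-27(EQ)::GFP. Among earlier ones it was 2.26 and 1.40 against 2.09. The collections were also set from the same RNA, and the deeply sequenced library is of DPY-27(EQ)::GFP. The substitution is therefore not isolated. By edgeR's quasi-likelihood F-test, 0 of 12137 genes had a Benjamini-Hochberg adjusted p under 0.05. Before adjustment 166 passed 0.05, which is fewer than the share of 0.05 that this threshold would pass if no gene differed. The smallest adjusted p was 1. Without the collection term these numbers were 0 and 40, and with DESeq2 they were 0 and 101. With a numeric covariate in place of the collection they were 0 and 347. This covariate was the mean of all tested sarcomere and furrow list genes minus that of all tested maternal RNA regulators. It differs from the late minus maternal mean of the markers above. With no filter on low counts 10 of 18504 genes were called, 1 higher and 9 lower in DPY-27(EQ)::GFP. These p-values measure the spread between the samples, which may be technical.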

How the data were processed

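Polyadenylated RNA was sequenced from mixed embryos with dUTP-stranded libraries. The authors deposited raw counts of reads per gene for 9 libraries and TPM values with WS220 positions. Tables of the authors' own strain comparisons (fold changes and p-values) were not used, and 0 columns of per-sample values were left unused. The submitters' processing notes name CASAVA 1.8, Cufflinks 2.2.0, HTSeq 0.6.1p1 and DESeq2. The methods text on mRNA-seq concerns another strain and does not say which strand setting was used in counting, so genes with exons on opposite strands are uncertain, as are near-identical copies, whose reads do not align uniquely. Among the genes named, exon overlap with an antisense gene (WBcel235 annotation) was 1 to 144 bases where it was found, the longest for col-74. Rows that name no gene held 12.6% to 21.2% of reads in transgenic and 55.2% to 58.2% in wild-type libraries and were left out. List symbols not matched in the count table were elt-5, opt-2, unc-17 and cha-1.

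The members of both collections and all gene lists were chosen with earlier results of these data known. Counts of 20389 genes were filtered with filterByExpr by strain, which left 12137, and scaled with TMM. Log2 CPM used a prior count of 2. The test was edgeR's quasi-likelihood F-test with the collection as a covariate, in R 4.3.3 with limma 3.58.1 and edgeR 4.0.16. Named genes were the 10 with the largest difference in each direction among those not overlapping, the 3 members of each list with the highest mean TPM that passed the filter, dpy-27 and hsp-16.41. Alternatives were DESeq2 1.42.0 and its size factors, log2(TPM + 1) and log2(TPM + 0.1), no filter or at least 10 counts in every library, counts thinned to the smallest library, other fold limits, and each library left out. The strain test was also run on simulated counts of 12137 genes, drawn from a common mean per gene with no difference between collections. In them 200 genes above the median level were changed by 2 on the log2 scale. Of these, 100% were recovered, and 13 others were called. Recovery of smaller changes, of genes at low levels or under the spread of the real collections was not examined. No 2 libraries agreed within sampling noise (lowest chi-square per degree of freedom 6.61 over 36 pairs). Promoter motifs were not analysed here. Figures were drawn with matplotlib 3.10.9.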

Additional observations from a re-analysis of the deposited data

Results flagged for a closer look

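Only the genes named by rule and the list medians were searched here. In 7 of these results the later libraries of DPY-27::GFP lay to one side of all its earlier libraries. Those of DPY-27(EQ)::GFP lay to the other side of theirs. Other list members had the same pattern, among them dpy-21 (-0.41 in DPY-27::GFP, 0.36 in DPY-27(EQ)::GFP) and mab-5 (0.53 and -0.65). The share over all genes tested was not counted, so whether 7 is many or few is not known. None of these differences between the strains was tested, and the values of the 7 that follow are DPY-27(EQ)::GFP minus DPY-27::GFP. For dpy-27, whose reads include those of the transgene, the value was 1.34. For the eggshell proteoglycan gene cpg-2 it was 1.18 and for the phosphatase gene cdc-25.2 it was 0.595. The foregut regulator pha-4 had 0.197 and the vesicle gene snb-1 had -0.295. The medians of the apical matrix list and of the nuclear hormone receptors had 0.269 and -0.203. Each strain has 1 library alone in one of its collections, so each sign rests on that library.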

How the results depend on the processing

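The number of genes higher by at least 1 on the log2 scale (172) was 78 with log2(TPM + 1), 320 with no filter on low counts, 1918 with no minimum fold, 3 at a minimum of 2, and 75 to 689 with a library left out. The number lower (87) was 136 with log2(TPM + 0.1), 2046 with no minimum fold, 1 at a minimum of 2, and 54 to 273 with a library left out. With no filter the correlation between the strains was 0.31, the X minus autosome difference 0.136 and the number of genes called between the strains 10. Leaving out libraries moved the correlation between 0.298 and 0.574. The X minus autosome difference kept its sign in every alternative. The cause of these shifts was not tested, apart from low-count genes entering where there was no filter.

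Of 300 alternative medians over 25 gene lists, 239 moved by less than the spread between replicates, 45 moved by more with one sign, and 16 changed sign. With both TPM pseudocounts the junction list was at -0.018 and the heat-inducible chaperones at -0.103. The furrow collagens were at -0.013 with thinned counts, and the apical matrix list was at 0.019 with DESeq2 size factors and 0.009 with at least 10 counts in every library. With a library left out, the eggshell list ran from -0.804 to 0.024, the tissue fate regulators from -0.150 to 0.022, the Hox genes from -0.119 to 0.015, the apical matrix list from -0.109 to 0.126, the heat-inducible chaperones from -0.236 to 0.950, the nuclear hormone receptors from -0.004 to 0.237 and the ceh- family from -0.114 to 0.023. The other lists kept their sign. Without the deeply sequenced DPY-27(EQ)::GFP replicate 3, the medians that moved by more than the spread between replicates were those of the eggshell list (-0.495) and the ceh- family (-0.048).

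With a replicate block and the collection term 0 genes were called between the strains (171 at an unadjusted p under 0.05). With the block alone, an alternative added after seeing the data, 0 were called (15). For 6 libraries these fits leave few residual degrees of freedom, so 0 calls do not show whether a block matters. DESeq2 and each library left out also gave 0. The correlations of same-numbered deviations between the strains were -0.28, -0.52 and -0.15. Each number joins an earlier library of one strain with a later library of the other, so these values do not show whether a number marks a shared batch or day.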
